A study of Mus musculus with 12 samples.

Results

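The T cells described here are those that the authors' finer annotation placed in none of its CD8 or CD4 subtypes. They were found in 6 libraries of CD45-enriched cells from mouse mammary tumours as cells annotated T whose finer label was none of Gzmb+ Cd8+ T, Lef1+ Cd8+ T, Cd44+ Cd4+ T, Cd44- Cd4+ T and Foxp3+ Cd4+ T. The rule gave 501 cells of 54955 in the CD45 libraries and of 115612 in all 12 libraries of the series. They carried 2 labels. Mki67+ Cd8/Cd4 T held 397 cells and Trdc+ DN T held 104 cells, and no cell with either label lay outside the T annotation. The 2 labels marked cells with little in common, so they are described one after the other.

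The tumours grew from 4T1 cells, a mouse mammary line used to model triple-negative breast cancer, in the mammary fat pad of female BALB/c mice aged 9 to 11 weeks, the strain in which the line arose and which keeps its immune system. Clone E, Clone EM1, Clone EM2, Clone EM3 and Clone M were each grown from 1 cell of that line and stand for epithelial, intermediate and mesenchymal states, and the Parental 4T1 line was implanted in the same way. Each group was 1 tumour, so a clone has no replicate tumour and no test between clones was made. Each tumour gave a Total library of dissociated cells and a CD45 library of cells held by magnetic beads that bind the leukocyte antigen CD45.

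Most T cells carry a receptor of an alpha and a beta chain and either CD8, the coreceptor of cytotoxic cells, or CD4, the coreceptor of helper and regulatory cells. After antigen meets the receptor, a T cell divides, and while it divides it transcribes genes of DNA replication, histones and mitosis, whatever its lineage. A smaller set of T cells carries a gamma and a delta chain, mostly without CD4 or CD8. In mice many gamma delta T cells of barrier tissues and tumours respond to the cytokine IL-23 and secrete IL-17, a cytokine that draws in neutrophils.

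The CD45 libraries held 28083101 to 57116299 UMIs (unique molecular identifiers, 1 for each RNA molecule read). Scrublet called 1 of the 501 cells a doublet, a droplet with more than 1 cell, and 500 were kept. The first 16 bases of the cell barcode were shared by 818 to 1760 cells in 14 of the 66 pairs of libraries, against 46 to 211 in the other pairs. Apart from both libraries of 1 tumour, these pairs joined the libraries of Clone E with those of Clone EM3 and the libraries of Clone EM1 with those of Clone EM2. In 87 of the 501 cells these bases also occurred in another CD45 library, and no whole barcode was shared within the 14 pairs. The T annotation was made from the same expression data, so the levels of its markers describe it and do not test it. Cd3e, a chain of the receptor's signalling complex, was at 1205 CPM in Mki67+ Cd8/Cd4 T, 1351 CPM in Trdc+ DN T and 1292 CPM in the 5 named subtypes, where CPM is a gene's count as a part of 1e6 UMIs of the summed cells. The same gene stood at 88.3 CPM in NK cells. Cd3g, of the same complex, was at 662, 517 and 705 CPM in these T cell classes, and Trac, of the alpha chain, at 1585, 457 and 1428 CPM, lower in Trdc+ DN T. At least 1 UMI of Cd3d, Cd3e, Cd3g or Trac was found in 384 of 396 Mki67+ Cd8/Cd4 T cells and in 94 of 104 Trdc+ DN T cells.

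Mki67+ Cd8/Cd4 T cells were a larger share of T cells in the tumours of Clones E, EM1, EM2 and EM3 than in those of Clone M and Parental 4T1. They made up 4.66% of T cells in Clone E (84 of 1802 cells, exact Clopper-Pearson 95% interval 3.74 to 5.74%), 4.59% in Clone EM1 (139 of 3026, 3.88 to 5.40%) and 4.82% in Clone EM2 (88 of 1827, 3.88 to 5.90%). The share was 3.43% in Clone EM3 (59 of 1720, 2.62 to 4.40%), 1.90% in Clone M (13 of 686, 1.01 to 3.22%) and 1.62% in Parental 4T1 (13 of 801, 0.867 to 2.76%). The intervals of Clones E, EM1 and EM2 did not overlap those of Clone M and Parental 4T1, and that of Clone EM3 overlapped them all. Clones E, EM1, EM2 and EM3 were also the tumours whose libraries shared barcode starts with those of another tumour. The difference between tumours thus cannot be told apart from this grouping of libraries. Of all CD45 cells, these cells were between 0.173% in Clone M and 1.49% in Clone EM1.

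Trdc+ DN T cells were ordered otherwise. They were 3.64% of T cells in Clone M (25 of 686 cells, 2.37 to 5.33%), 1.31% in Clone EM2 (24 of 1827, 0.843 to 1.95%) and 1.12% in Parental 4T1 (9 of 801, 0.515 to 2.12%). They were 0.999% in Clone E (18 of 1802, 0.593 to 1.57%), 0.727% in Clone EM1 (22 of 3026, 0.456 to 1.10%) and 0.349% in Clone EM3 (6 of 1720, 0.128 to 0.758%). The interval of Clone M lay above all others, and the neighbours among the remaining tumours overlapped. Clone M also had the fewest T cells, and over all CD45 cells its share was 0.333% (0.216 to 0.491%), whose interval overlapped those of all other tumours except Clone EM3 (0.0204 to 0.121%), among them Clone EM2 at 0.268% (0.172 to 0.399%) and Clone EM1 at 0.236% (0.148 to 0.357%). All intervals cover counting error only, not the spread between animals.

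**Figure D1:**
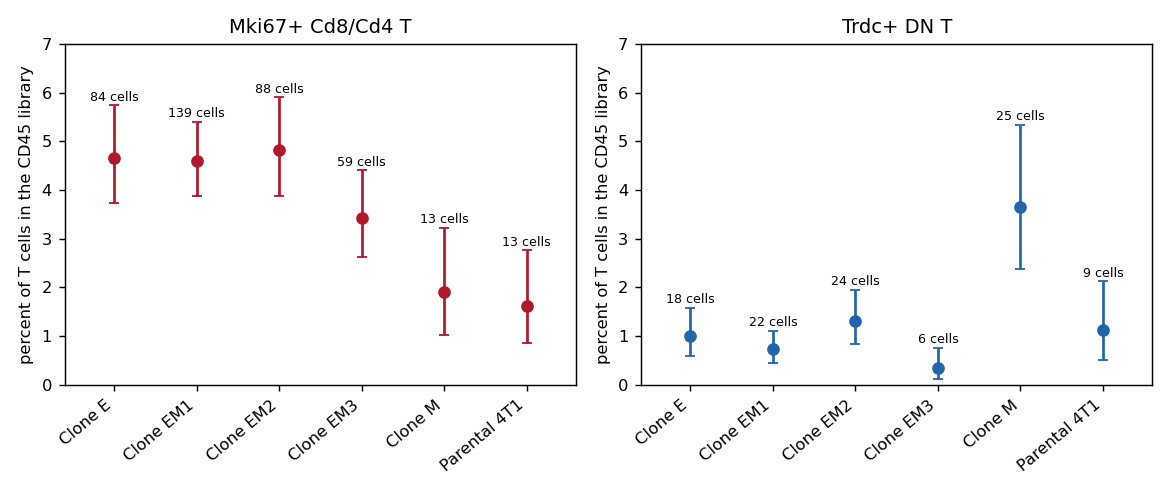
Percent of T cells in each CD45 library that were Mki67+ Cd8/Cd4 T (left) or Trdc+ DN T (right), with exact 95% binomial intervals and the number of cells, 1 tumour per clone. Mki67+ Cd8/Cd4 T cells lie between 1.62% and 4.82%, lowest in Clone M and Parental 4T1, and Trdc+ DN T cells are highest in Clone M at 3.64%.

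In Mki67+ Cd8/Cd4 T cells every gene of the cell division list was at least 2-fold higher than in the 5 named T subtypes in each of the 4 tumours with at least 20 such cells, Clones E, EM1, EM2 and EM3. The median of the 11 genes was 3.85 on the log2 scale of CPM plus 10, against -0.05 over all 5479 genes tested. Over all genes, 287 were higher (5.24% of those tested) and 68 lower (1.24%) in all 4 tumours, with 121 lower without Clone EM3. The annotation was made from the same genes, so these contrasts describe the label and are no test of it.

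Mki67, a coat protein of mitotic chromosomes and the usual marker of dividing cells, stood at 973 CPM in Clone E, 988 in Clone EM1, 1184 in Clone EM2, 999 in Clone EM3, 950.1 in Clone M and 1229 in Parental 4T1. In the 5 named subtypes it ranged from 15.7 to 33.6 CPM, so the groups did not overlap, as the label, which names this gene, would set. Top2a, which untangles DNA strands, lay between 1258 and 1511 CPM, against 38.6 to 66.0 CPM in the named subtypes. Rrm2, a subunit of the enzyme that makes deoxynucleotides, lay between 448 and 771 CPM, against 5.99 to 17.6 CPM.

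The histone gene Hist1h2ap had the highest ratio of all, a median log2 ratio of 5.78 over the 4 tumours (5.47 to 5.89), with 3599 CPM over all tumours summed. Of the 15 genes with the highest ratios, 6 were histone genes, whose transcripts are made in S phase: Hist1h2ap, Hist1h2ae, Hist1h1b, Hist1h2bn, Hist1h1a and Hist1h3c. Ccna2, the cyclin of S and G2 phase, was at 380.1 CPM against 3.55 CPM. Genes of DNA replication such as Mcm5 (380.1 CPM) and Tyms (158 CPM) were present beside genes of mitosis such as Cdk1 (329.9 CPM), Birc5 (271 CPM), Ube2c (235 CPM) and Ccnb2 (186 CPM). Genes of DNA synthesis and of mitosis were thus both high in the summed cells, and phases of single cells were not called.

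The windows upstream of 2 of these mitotic genes are shown because the genes went together in every tumour counted and their start regions hold short elements known from cell cycle promoters. CCAAT is the box bound by the factor NF-Y, and TTTGAA is the core of the element called CHR, at which cell cycle genes are held silent outside division. The windows are the 250 bases before the RefSeq start in build GRCm38.p6, on the strand of the gene, and capitals mark CCAAT and TTTGAA on either strand, which did not overlap each other. Cdk1, the kinase that drives entry into mitosis, lies on the minus strand of chromosome 10, with its window at chr10:69352913-69353162.
Cdk1: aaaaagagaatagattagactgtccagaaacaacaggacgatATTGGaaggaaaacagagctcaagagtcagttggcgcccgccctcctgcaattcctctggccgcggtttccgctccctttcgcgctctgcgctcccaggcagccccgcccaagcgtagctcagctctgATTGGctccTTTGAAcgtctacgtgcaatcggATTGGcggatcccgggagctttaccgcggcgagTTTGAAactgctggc
Ccnb2, a cyclin that binds that kinase, lies on the minus strand of chromosome 9, with its window at chr9:70421555-70421804.
Ccnb2: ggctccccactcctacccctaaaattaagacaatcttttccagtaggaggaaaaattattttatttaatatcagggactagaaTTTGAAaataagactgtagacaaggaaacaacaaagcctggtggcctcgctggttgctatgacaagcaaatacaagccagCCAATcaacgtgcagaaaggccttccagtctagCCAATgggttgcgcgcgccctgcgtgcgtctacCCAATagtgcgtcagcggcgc
The Cdk1 window held CCAAT in the opposite orientation at positions -208, -80 and -48 and TTTGAA at -71 and -15, counted from the start as the first base of each match. The Ccnb2 window held CCAAT at -87, -54 and -21 and TTTGAA at -167. Of the 11 genes of the cell division list, 10 matched a RefSeq window. CCAAT was in 8 of these 10 windows, against 33.8% of all 32851 windows, and TTTGAA in 5 of 10, against 16%. A match of letters is a description of the window and not evidence of binding.

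The dividing cells were of mixed lineage, as their label says. Over all tumours 187 of 396 cells had a UMI of Cd8a or Cd8b1 and none of Cd4, 124 had a UMI of Cd4 and none of the CD8 genes, 25 had both and 60 had neither. The 25 cells with both were 6.31% (4.13 to 9.18%), against 3.11% (2.77 to 3.48%) in the named subtypes, whose median depth was 1220 UMIs against 4072 UMIs in the dividing cells. Cells with CD8 only were the largest group in Clone E with 49 of 84, Clone EM1 with 73 of 139 and Clone EM3 with 26 of 59. Clone EM2 held more cells with CD4 only, 40 of 88 against 30. Foxp3, the master factor of regulatory T cells, had a UMI in 88 of 396 cells, or 22.2% (18.2 to 26.6%), with 31 of 88 in Clone EM2 and 13 of 84 in Clone E. In the named subtypes the share was 14.0%, and after thinning every cell to 500 UMIs the shares were 10.1% and 9.98%.

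The CD8 share of all CD8 and CD4 UMIs was higher in dividing cells than in the named subtypes of the same tumour in 6 of 6 tumours. It was 74.2% against 70.6% in Clone E, 76.4% against 63.3% in Clone EM1, 56.5% against 53.7% in Clone EM2 and 65.1% against 58.1% in Clone EM3. It was 48.8% (33.3 to 64.5%) against 25.8% in Clone M and 70.2% (56.6 to 81.6%) against 36.3% in Parental 4T1, each from 13 dividing cells. The intervals of the dividing cells contained the value of the named subtypes in Clone E, at 70.5 to 77.7%, and in Clone EM2, at 51.1 to 61.7%, so in these tumours the difference lay within counting error. UMIs of 1 cell are not independent draws, so the intervals are too narrow. Counted by cells, the dividing cells of Clone EM2 were 30 with CD8 UMIs only and 40 with Cd4 UMIs only, against 386 and 465 in the named subtypes, which is no higher CD8 share. In Parental 4T1 they were 4 and 5 cells, against 106 and 230.

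**Figure D2:**
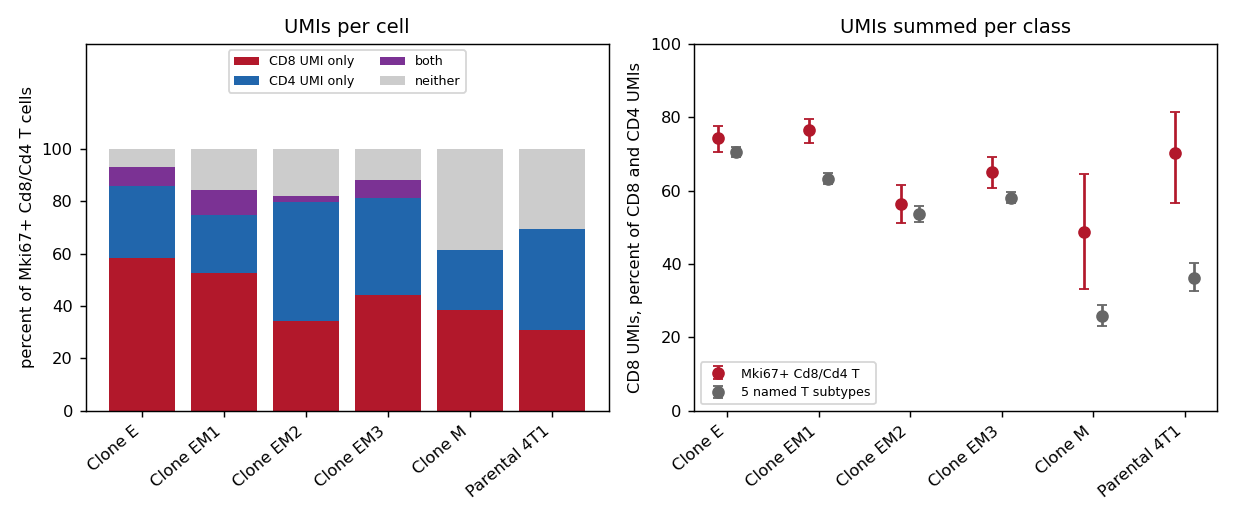
Left, percent of Mki67+ Cd8/Cd4 T cells per tumour with a UMI of CD8 genes (Cd8a, Cd8b1) only, Cd4 only, both or neither. Right, CD8 UMIs as a percent of CD8 and CD4 UMIs, with exact 95% binomial intervals, in these cells and in the 5 named T subtypes. The dividing cells lie above the named subtypes in all 6 tumours, and in Clones E and EM2 the interval contains the other value.

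Split by these UMIs, the dividing cells differed in cytotoxic and regulatory genes. The 187 cells with CD8 only held the cytotoxic genes Gzmb at 1251 CPM (exact Poisson 95% interval 1176 to 1330), Gzma at 549 CPM, Nkg7 at 1844 CPM and Prf1, the pore-forming perforin, at 123 CPM. In the 124 cells with CD4 only Gzma was at 0 UMIs, Prf1 at 2.84 CPM and Nkg7 at 158 CPM, while Gzmb was at 361 CPM (318 to 408). The CD4 cells instead held Il2ra, the high-affinity chain of the IL-2 receptor, at 1695 CPM against 175 CPM, the inhibitory receptor Ctla4 at 1833 CPM against 479 CPM and the costimulatory receptor Tnfrsf4 at 955 CPM against 86.7 CPM. The 88 cells with a Foxp3 UMI had Il2ra at 2426 CPM, Ctla4 at 2273 CPM and Gzmb at 508 CPM, against 2932, 2369 and 755 CPM in the Foxp3+ Cd4+ T subtype. Only 7 of the 88 had a CD8 UMI, so they overlap the cells with CD4 only and are no separate group. The values of cells with CD4 only thus include regulatory T cells.

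Compared with the Gzmb+ Cd8+ T subtype, the dividing cells with CD8 only had more Gzmb (851 CPM in the subtype) and Gzma (141 CPM in the subtype). They had less of the chemokine Ccl5, at 1379 against 4698 CPM, and of the inhibitory receptors Pdcd1, at 2126 against 3468 CPM, Lag3, at 363 against 1005 CPM, and Havcr2, at 158 against 283 CPM. Prf1 was also lower, at 123 against 236 CPM. Tcf7, a factor of less differentiated T cells, was at 114 against 46.6 CPM. These cells were picked by their own CD8 UMIs, which favours deeply sequenced cells, and the values are sums over tumours. The other CD8 subtype, Lef1+ Cd8+ T, was not part of this comparison, and its part in these differences was not tested. CPM is a part of all UMIs, and the dividing cells held more UMIs per cell. A lower CPM here thus need not mean fewer molecules per cell.

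Of the genes lower in Mki67+ Cd8/Cd4 T than in the named subtypes, which were 1.24% of all genes tested, the naive and memory list held 3 of its 8 tested genes: Lef1, Il7r and S1pr1. S1pr1, the receptor with which T cells leave tissue, was at 166 against 520.1 CPM, Il7r, the receptor of the survival cytokine IL-7, at 96.7 against 273 CPM, and Lef1, a factor of naive T cells, at 134.8 against 403 CPM. Klf2, which keeps T cells quiescent, was at 523 against 1432 CPM. Its 6 tumours ranged from 426 to 1165 CPM in the dividing cells and from 978 to 2502 CPM in the named subtypes, so the ranges overlapped, and it was not among the genes called. The lowest ratio was that of Tcp11l2, at 26.4 against 284 CPM, then the histone demethylase Kdm5b, at 7.40 against 96.2 CPM, and Ecm1, at 25.9 against 183 CPM. No gene of the checkpoint list (6 tested), the regulatory T list (5 tested) or the type 17 list (1 tested) was called in either direction. The comparison class decided most of this list. Against Gzmb+ Cd8+ T cells alone, an alternative chosen after the data had been seen, 284 genes were higher and 67 lower, and 250 of the 287 higher but only 13 of the 68 lower genes were called again.

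Receptor variable genes were compared between the dividing cells and the named subtypes as shares of cells. Among Mki67+ Cd8/Cd4 T cells of Clone EM1 with a UMI of any of the 20 Trbv genes, 37 of 116 had Trbv14 (31.9%, 23.6 to 41.2%), a variable segment of the beta chain on chromosome 6 (chr6:41135145-41135616, plus strand, GRCm38). In the dividing cells of the other 5 tumours it was between 0 of 12 cells in Parental 4T1, which allows up to 26.5% of cells with a UMI, and 7 of 74 in Clone E. The intervals of Clone M, with 1 of 11 cells, and of Parental 4T1 overlapped that of Clone EM1, and those of Clones E, EM2 and EM3 lay below it. The Gzmb+ Cd8+ T cells of Clone EM1 held Trbv14 in 333 of 568 such cells (58.6%, 54.5 to 62.7%) and those of Clone EM3 in 70 of 264 (26.5%), against 7 of 457 in Clone E and 10 of 161 in Clone EM2. In the dividing cells of Clone EM3 it was found in 3 of 51. Descent of the one from the other was not tested.

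Clone E stood apart by Tcrg-V7, a gamma chain variable segment on chromosome 13 (chr13:19178024-19178492, plus strand). It had a UMI in 8 of its 84 dividing cells (9.52%) and in 59 of its 560 Gzmb+ Cd8+ T cells (10.5%). In the other tumours it was in at most 2 dividing cells and in at most 10 Gzmb+ Cd8+ T cells per tumour. Trdc, the constant segment of the delta chain, was at 17.2 CPM in the dividing cells of Clone E, below the 68.9 CPM of those of Clone EM2. Gamma chain genes are also transcribed in alpha beta T cells, so a gamma UMI alone does not mark a gamma delta T cell.

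Differences between tumours in the other genes often rested on single cells. With both labels summed, the genes with the largest ratio of Clone EM1 to the other tumours were Igkc, Mzb1 and Jchain, which plasma cells express for antibody. For Igkc, the antibody kappa light chain, 2 dividing cells of Clone EM1 held 1386 and 4210 UMIs, with 156 and 150 UMIs of Jchain, and 1 cell of Clone E held 1145 UMIs, with 158 of Jchain. Each of these 3 cells also had 5 to 7 UMIs of Mki67 and 13 to 48 UMIs of Cd3d, Cd3e, Cd3g and Trac together. Gzmc, a granzyme, reached 11311 CPM in the 13 dividing cells of Clone M, and 1 cell without any UMI of these T cell genes held all 631 UMIs. Whether these cells are pairs of cells or of another type was not tested. Leaving out all 4 changed the counts of called genes from 287 to 292 higher and from 68 to 67 lower. Clone M is not among the tumours used for these counts, so its cell could change only which genes were tested. With both labels summed, over all 6 tumours, the counts changed from 190 to 175 higher, 170 of them shared. The lower genes changed from 11 to 10.

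Marker lists of other cell types differed in how the dividing cells compared with the named subtypes. The summed level of the 10 macrophage genes ranged from 771 to 1476 CPM over the tumours, against 2052 to 5297 CPM in the named subtypes, and 6 of the 8 macrophage genes tested were among the genes called lower, against 1.24% of all genes tested. The 6 granulocyte genes summed to 519 to 5343 CPM against 1269 to 2423 CPM, highest in Clone EM3, where S100a9 was at 2881 CPM and S100a8 at 2100 CPM. The 5 NK genes in the tables summed to 95.4 to 253 CPM against 23.4 to 189 CPM, and the 3 endothelial genes to 61.9 to 197 CPM against 101 to 149 CPM. The 6 B cell genes summed to 0 to 16.6 CPM against 7.75 to 20.4 CPM, with Ms4a1 and Ebf1 at 0 UMIs. The 5 fibroblast genes summed to 0 to 35.9 CPM against 3.51 to 15.3 CPM, with Pdgfra and Dcn at 0 UMIs, and of the endothelial genes Cdh5 had none. Their part in the results was not tested.

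Trdc+ DN T cells differed from the named T subtypes in another way. In the 3 tumours with at least 20 such cells, Clones EM1, EM2 and M, 141 genes were at least 2-fold higher (2.68% of 5263 tested) and 266 at least 2-fold lower (5.05%). With 1 of these tumours left out the counts were 191 higher and 496 lower without Clone EM1, 216 and 506 without Clone EM2, and 268 and 552 without Clone M. With a floor of 20 CPM 148 were higher and 600 lower of 7578 tested. Of the 9 type 17 genes, all tested, 7 were higher, among them Il17a, Il17f, Il23r, Il1r1, Tmem176a and Tmem176b, with a list median of 4.64 against -0.26 over all genes tested. Of the 6 gamma delta T genes tested, 3 were higher, namely Trdc, Tcrg-C1 and Blk, and none was lower. In the dividing cells 1 gene of each of these lists was tested and neither was called. All these values describe a label that was made from the same genes.

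The receptor genes are described first. Trdc, on chromosome 14 (chr14:54142851-54148868, plus strand, GRCm38), was at 853 CPM in Clone E, 671 in Clone EM1, 1110 in Clone EM2, 74.5 in Clone EM3, 1403 in Clone M and 945 in Parental 4T1. Only Clone EM3, with 6 cells and 1 UMI, was low, and in the named subtypes the range was 10.7 to 38.1 CPM. Trac, the constant segment of the alpha chain, was at 457 CPM (356 to 578) against 1428 CPM, the 1 gene of the T list called lower. Of the constant segments of the beta chain, Trbc1 was at 1013 CPM against 771 CPM and Trbc2 at 742 CPM against 1072 CPM. A Trbv UMI was found in 1 to 9 cells per tumour. Tcrg-C1, a gamma chain constant segment on chromosome 13 (chr13:19214103-19217024), was at 113 against 5.29 CPM from 17 UMIs.

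Trdc alone did not set these cells apart. It had a UMI in 48 of 104 Trdc+ DN T cells (46.2%, 36.3 to 56.2%), but also in 113 of 505 NK cells (22.4%, 18.8 to 26.3%) and in 81 of 961 Lef1+ Cd8+ T cells (8.43%, 6.75 to 10.4%), against 9 of 13451 granulocytes (0.0669%). The median depths were 1334, 1297, 1650 and 976 UMIs. Thinned to 500 UMIs, the shares were 31.1%, 10.6%, 4.76% and 0.0232%, with 1 Trdc+ DN T cell left out as too shallow, and 10 NK cells, 8 Lef1+ Cd8+ T cells and 1155 granulocytes. Of the 832 Trdc UMIs in the CD45 libraries, 145 lay in Trdc+ DN T cells, 338 in the named subtypes and 174 in NK cells. Trdc and Il17a were found together in 26 of the 104 cells.

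The cytokine genes were the highest of all by ratio. Il17a stood at 2243 CPM in Clone E, 3867 in Clone EM1, 1480 in Clone EM2, 745 in Clone EM3, 3363 in Clone M and 1995 in Parental 4T1, against 1.94 to 11.0 CPM in the named subtypes. Every tumour's value lay above those of the named subtypes. Il17f, the neighbouring gene of the same family, was at 1422, 710.2, 1244, 0, 1935 and 315 CPM in the same order of tumours, with 0 UMIs in the 6 cells of Clone EM3. Il17a or Il17f had a UMI in 54 of the 104 cells, both in 16. Of the 479 Il17a UMIs in all CD45 cells kept, 381 lay in these 104 cells, which is 79.5%, and of the 261 Il17f UMIs 183 did, or 70.1%.

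Single cells held much of the cytokine RNA. In Clone EM1 1 cell held 68 of the 98 Il17a UMIs, in Clone M 1 cell held 75 of 139, and in Parental 4T1 18 of 19 lay in 1 cell. Without that cell in each tumour, a setting chosen after the data had been seen, Il17a was at 1266 CPM in Clone EM1 (854 to 1807), 1638 in Clone M (1261 to 2091), 1582 in Clone E (1150 to 2124), 1199 in Clone EM2 (830.1 to 1675) and 121 in Parental 4T1 (3.07 to 676). The order of the tumours by Il17a thus turned on 1 cell each, and the intervals of Clones E, EM1, EM2 and M then overlapped, with that of Parental 4T1 below them. Clone EM3 was then at 478 CPM (155 to 1115), below the intervals of Clones E and M and overlapping those of the other tumours.

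Among the receptors and factors of the type 17 programme, Il23r was spread more evenly, and the others are given summed over tumours. Il23r, the receptor for IL-23, lay between 706 and 979.5 CPM in the 5 tumours other than Clone EM3, which had 3 UMIs (223 CPM), and it had a UMI in 59 of 104 cells. Il1r1, the receptor for IL-1, was at 384 against 2.80 CPM, Tmem176a at 934 against 33.6 CPM and Tmem176b at 854 against 41.6 CPM. Maf, a factor of IL-17-producing gamma delta T cells, was at 1404 against 358 CPM, and Ccr6, a chemokine receptor of type 17 cells, at 192 against 13.9 CPM, but neither passed the call in all 3 tumours. Blk, a Src-family kinase of B cells and of IL-17-producing gamma delta T cells, was at 907 against 0.831 CPM, and Zbtb16, the factor PLZF of innate-like T cells, at 907 against 20.6 CPM. Of the 6 genes of the B cell list, 2 had a UMI in the same cells and Cd79a, Ms4a1 and Ebf1 were among those with none, and the list summed to 0 to 33.6 CPM over tumours against 7.75 to 20.4 CPM in the named subtypes.

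**Figure D3:**
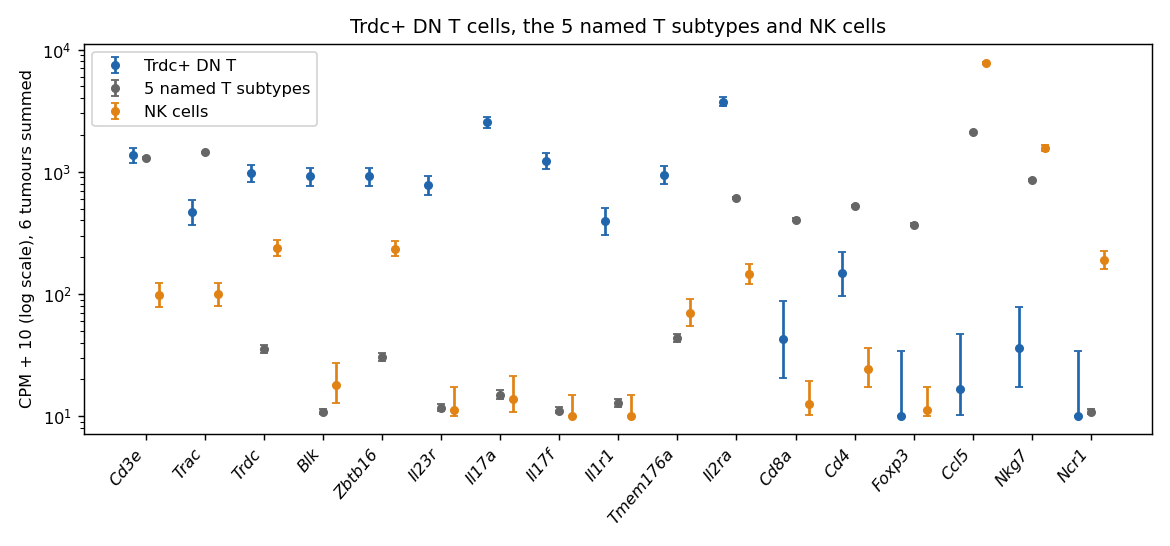
CPM plus 10 on a log axis, with exact 95% Poisson intervals, for 17 genes in Trdc+ DN T cells, the 5 named T subtypes and NK cells, each summed over 6 tumours. Il17a, Il17f, Blk, Il23r and Il1r1 are high in Trdc+ DN T cells alone among the 3 classes shown, whereas Trdc and Zbtb16 are also raised in NK cells, and Ccl5, Nkg7 and Ncr1 are not raised in Trdc+ DN T cells.

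The window upstream of Il17a is shown because that gene had the largest ratio and its start region holds AGGTCA, the half-site letters known as a binding element of nuclear receptors. It lies on the plus strand of chromosome 1, with its window at chr1:20730655-20730904 in build GRCm38.p6, from RefSeq, and capitals mark AGGTCA on either strand.
Il17a: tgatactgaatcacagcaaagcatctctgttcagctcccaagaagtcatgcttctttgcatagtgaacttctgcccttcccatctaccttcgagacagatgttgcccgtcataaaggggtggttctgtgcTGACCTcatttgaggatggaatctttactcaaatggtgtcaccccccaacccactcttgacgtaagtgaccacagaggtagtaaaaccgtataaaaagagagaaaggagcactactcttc
The match lay on the opposite strand at position -120 from the start. RefSeq windows of the same 250 bases were found for 7 of the 9 type 17 genes, and 4 of the 7 genes, namely Il17a, Il17f, Il23r and Ccr6, held AGGTCA in a window. Of their 12 windows 4 held it, against 14.0% of all windows and 0 of the 10 cell division windows. This too is a description of letters.

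Genes outside the fixed lists with the highest ratios included Pxdc1 at 1357 against 30.8 CPM, Igf1r, the receptor for insulin-like growth factor, at 762 against 27.3 CPM, Serpinb1a, an inhibitor of granule proteases, at 589 against 13.4 CPM and Lmo4 at 1265 against 70.8 CPM. Lif, a cytokine of the IL-6 family, was at 609 against 12.7 CPM, yet 27 of its 30 UMIs in Clone E lay in 1 cell. Il2ra was at 3741 against 601 CPM, and it was the 1 gene of the regulatory T list called higher while Foxp3, Ikzf2, Tnfrsf18 and Tnfrsf4 were called lower, against 2.68% higher and 5.05% lower of all genes tested. Rora, a factor shared with innate lymphoid cells, was at 1629 against 398 CPM. Of the helper cytokine list, Tnf at 371 against 34.7 CPM and Tnfsf11, the ligand RANKL, at 788 against 95.8 CPM were higher in all 3 tumours. Cd69, an activation and residency marker, was at 1278 against 132 CPM.

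The genes that were lower included those of CD8 and of the cytotoxic and regulatory programmes. Cd8a and Cd8b1, the 2 CD8 genes, were called lower with 5 and 2 UMIs in all. Cd4 was at 139 against 512 CPM from 21 UMIs in 5 cells, with 9 of them in 1 cell of Clone EM1, so it was not called lower in that tumour. Neither CD8 nor CD4 UMIs were found in 94 of the 104 cells (90.4%, 83.0 to 95.3%). The same held for 3622 of 9362 cells of the named subtypes (38.7%) and for 51.8% of Cd44- Cd4+ T cells. A lack of these UMIs in 1 cell thus does not show a cell without CD4 and CD8. Foxp3, Lag3, Tnfrsf4 and Ifng had 0 UMIs among 151015, where 3 UMIs would be 19.9 CPM, against 360.2, 330.2, 377 and 56.3 CPM in the named subtypes. Against that level Foxp3 was at least 18.1-fold, Tnfrsf4 at least 19.0-fold and Lag3 at least 16.6-fold lower, the level being 3 UMIs over all tumours.

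Of the 9 cytotoxic genes 6 were lower, namely Gzma, Gzmk, Nkg7, Ccl5, Ifng and Fasl, and 1, Gzmc, was higher with 13 UMIs, against 5.05% lower and 2.68% higher of all genes tested. Ccl5 was at 6.62 against 2093 CPM and Nkg7 at 26.5 against 843 CPM. Gzmb was at 973 against 386 CPM, with 1572 CPM in Clone M and 210.0 CPM in Parental 4T1. Pdcd1, the receptor PD-1, was at 1179 CPM (1012 to 1365) against 1504 CPM, with 298 CPM in Clone EM3 and 2520 CPM in Parental 4T1. S1pr1 and Klf2 of the naive and memory list were also lower, and Mki67 had 1 UMI in all 104 cells. Of the 266 lower genes, 122 had at most 3 UMIs in the Trdc+ DN T cells and 29 had none, so many of these calls rest on few molecules. Of the 141 higher genes, 137 had at least 10 UMIs.

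None of the 5 NK genes in the tables (Ncr1, Klre1, Klra8, Eomes and Klra7) had a UMI in the Trdc+ DN T cells, although Klra8 had none in NK cells either, nor did Rag1, Rag2 or Dntt of the thymocyte list. Gata3, a factor of type 2 cells, was at 291 against 431 CPM, and Il5 and Il13, their cytokines, had 1 UMI each. Of the 7 genes of the innate lymphoid type 2 list, all tested, Rora was called higher and Il1rl1 and Il5 lower, against 2.68% higher and 5.05% lower of all genes tested, and the list summed to 1917 to 4170 CPM over tumours against 932 to 3630 CPM in the named subtypes. The authors' deposited reference-based label, from the ImmGen collection, called 87 of the 104 cells ILC, or innate lymphoid cells, 12 NKT, 3 Tgd, 1 T cells and 1 Basophils. It called 203 of the 397 Mki67+ Cd8/Cd4 T cells T cells, 140 NKT, 31 Tgd, 11 ILC, 7 NK cells, 4 Neutrophils and 1 Macrophages. That label and the T annotation thus parted on most of the Trdc+ DN T cells, while Cd3e was at the level of the named subtypes. The 10 macrophage genes summed to 1960 to 5669 CPM over tumours, against 2052 to 5297 CPM in the named subtypes. The 3 endothelial genes summed to 235 to 419.9 CPM against 101 to 149 CPM, without overlap, all from Pecam1, which leukocytes also express, as Cdh5 and Kdr had 0 UMIs. The 7 immediate early and stress genes summed to 1785 to 4989 CPM against 1725 to 2740 CPM, and Jun was the 1 gene of that list called higher, at 497 against 109.5 CPM. The part of these lists in the results was not tested.

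Within the Trdc+ DN T cells Cd163l1 and Ccr7 differed between tumours. Cd163l1, a scavenger receptor of IL-17-producing gamma delta T cells, was at 379 CPM in Clone E, 0 in Clone EM1, 168 in Clone EM2, 596 in Clone EM3, 1258 in Clone M and 210.0 in Parental 4T1. Clone M held it in 12 of 25 cells, Clone EM1 in 0 of 22, which allows up to 15.4% of cells with a UMI and does not limit the cells expressing it at a median of 1058 UMIs per cell. By summed counts the interval of Clone EM1 was 0 to 145.5 CPM and that of Clone M 939.5 to 1650.0 CPM, and no cell of the CD45 library of Clone EM1 had a UMI of it. In Clone EM3 all 8 UMIs lay in 1 cell, in Parental 4T1 both of 2 and in Clone E 9 of 12. Without the cell richest in it, a setting chosen after the data had been seen, Cd163l1 was at 950 CPM (672 to 1304) in Clone M. It was then at 103 CPM (21.2 to 301) in Clone E, 69.7 CPM (8.45 to 252) in Clone EM2 and 0 in the rest. Only the interval of Clone M thus lay above all others. Ccr7, the receptor that guides T cells to lymph nodes, was at 2170 CPM in Clone EM1 and 942 CPM in Clone EM2. In the other 4 tumours it was at 31.6 to 315 CPM. In Clone EM1 31 of its 55 UMIs lay in 1 cell. Clones EM1 and EM2, highest in Ccr7, were also a pair whose libraries shared barcode starts. Their levels of both genes thus cannot be told apart from that grouping of libraries.

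Il2ra was highest in Clone M at 6338 CPM, against 1783 to 3393 CPM in the other 5 tumours. Without the cell richest in it the value was 5373 CPM (4677 to 6143). Tcrg-V6, the gamma variable segment of a family of IL-17-producing cells on chromosome 13 (chr13:19190356-19190929), had 8 UMIs in 6 cells of Clone M, and 4 UMIs in Clone E and 2 each in Clone EM3 and Parental 4T1, each time in 1 cell. It had none in Clones EM1 and EM2, where 5 UMIs of Tcrg-V1 in 3 cells of Clone EM2 were the only gamma variable UMIs. The libraries of these clones are again the pair that shared barcode starts. Areg, an epidermal growth factor receptor ligand, was at 2755 CPM in Clone EM3, with 32 of 37 UMIs in 1 cell.

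**Figure D4:**
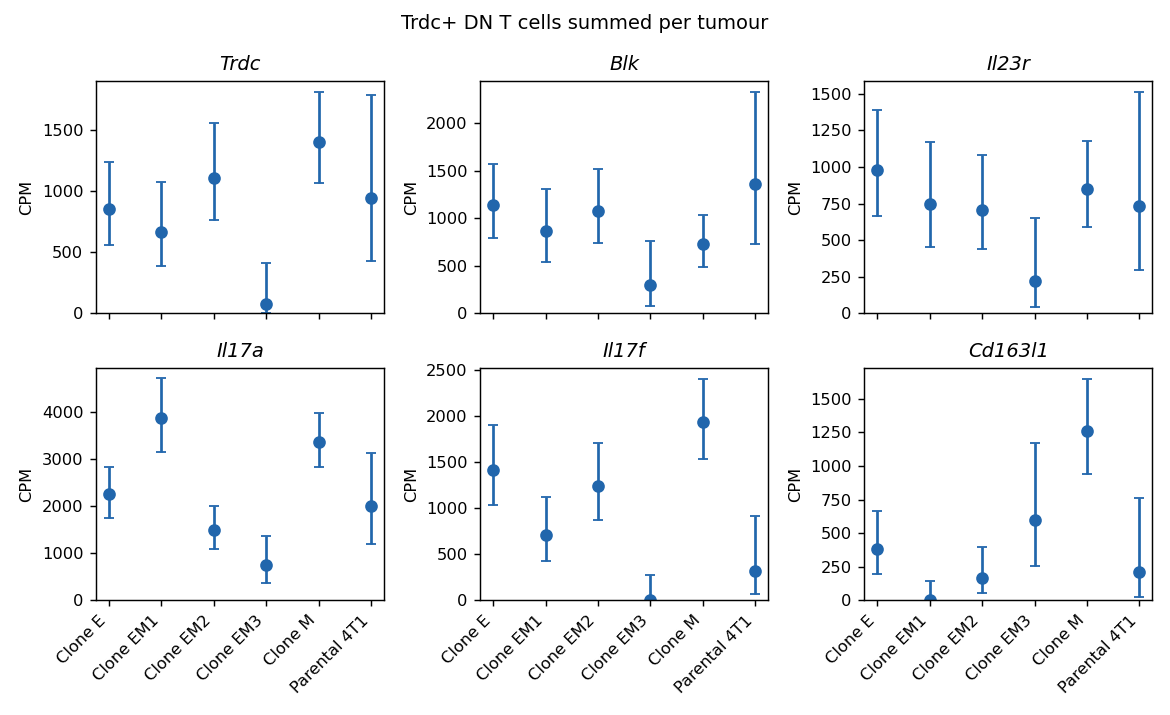
CPM with exact 95% Poisson intervals of 6 genes in the Trdc+ DN T cells of each tumour, from 6 to 25 cells. Cd163l1 is highest in Clone M at 1258 CPM and at 0 in Clone EM1, Il17a is highest in Clone EM1 and Clone M with all cells, though Clone EM1 falls to 1266 CPM, below Clone E at 1582 CPM, without the cell with most Il17a UMIs in each, and Il23r differs little among the 5 tumours other than Clone EM3.

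The Total library of each tumour, made from other cells of it, gave a second reading, since its T and NK cells form 1 class. In that class Mki67 was at 174 CPM in Clone E, 180.4 in Clone EM1, 234 in Clone EM2 and 171 in Clone EM3, against 78.4 in Clone M and 91.5 in Parental 4T1. In T with NK cells of the CD45 libraries it was at 131, 158, 203, 131, 58.4 and 101.3 CPM. In both libraries Clones E, EM1, EM2 and EM3 thus stood above Clone M and Parental 4T1, and Clone EM2 was highest. The libraries of both kinds from Clones E, EM1, EM2 and EM3 also shared barcode starts across tumours. The repeat therefore does not separate the tumours from that grouping. In the CD45 libraries the interval of Parental 4T1 (82.4 to 123 CPM) overlapped those of Clone E (120.0 to 143 CPM) and Clone EM3 (119.8 to 144 CPM). Top2a lay at 124 and 158 CPM in Clone M and Parental 4T1 of the Total libraries and between 223 and 321 CPM in the rest.

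Levels over all T with NK cells mix the share of Trdc+ DN T cells, largest in Clone M, with the level within them. Within Trdc+ DN T cells alone, Il23r was highest in Clone E and Cd163l1 in Clone M. Over all T with NK cells, Il23r and Cd163l1 were highest in Clone M in both kinds of library. Il23r was at 28.3 CPM (21.8 to 36.2) in the Total library of Clone M and 32.2 CPM in its CD45 library, although in the Total library of Parental 4T1 Il23r was at 22.6 CPM with an overlapping interval (14.5 to 33.7). Cd163l1 was at 42.5 CPM (34.4 to 51.9) and 44.0 CPM in Clone M. Trdc was at 111 and 92.3 CPM there, the highest in both, and in the CD45 libraries its interval (75.8 to 111) overlapped that of Clone EM2 (60.9 to 82.7). Il17a repeated in some tumours only. It was at 18.6 CPM (13.4 to 25.1) in the Total library of Clone M against 121 CPM (102 to 143) in its CD45 library. In the same order it was at 51.9 against 23.3 CPM in Parental 4T1, 11.1 against 26.8 in Clone EM1 and 9.38 against 22.1 in Clone EM2. Both libraries were close in Clone E, at 28.8 against 28.25 CPM, and in Clone EM3, at 4.54 against 4.41 CPM. Il17f was at 2.21 against 69.5 CPM in Clone M. In Parental 4T1 Cd163l1 was at 26.4 CPM in the Total library, with an interval (17.6 to 38.2) that overlapped that of Clone M, from 28 UMIs in 6 cells, against 2.03 CPM from 2 UMIs in the CD45 library. For Clone EM1, Cd163l1 was at 2.90 CPM from 6 UMIs in the Total library and at 0 in the CD45 library.

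**Figure D5:**
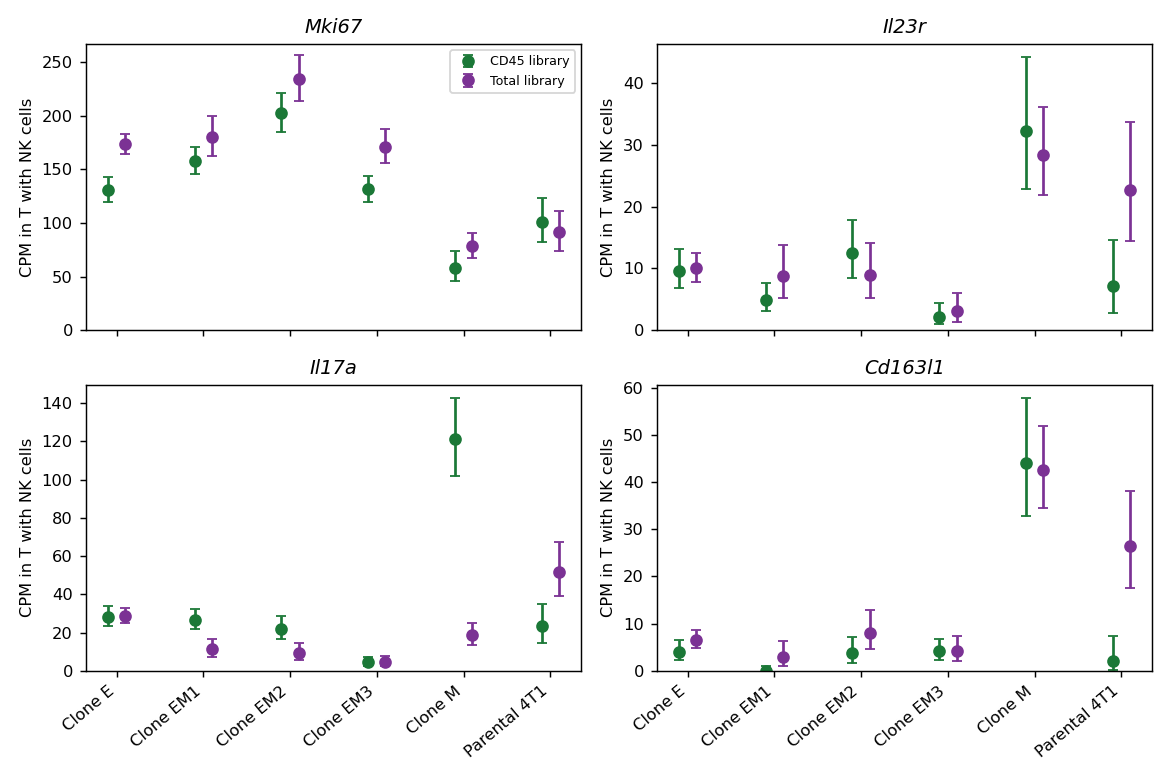
CPM with exact 95% Poisson intervals of Mki67, Il23r, Il17a and Cd163l1 in the T with NK cells of the CD45 and Total libraries of each tumour. Mki67 is lowest in Clone M and Parental 4T1 in both, Il23r and Cd163l1 are highest in Clone M in both, and Il17a in Clone M is 121 CPM in the CD45 and 18.6 CPM in the Total library.

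With both labels summed, 190 genes were at least 2-fold higher (3.50% of 5433 tested) and 11 lower (0.202%) in all 6 tumours. Among the higher genes were all 11 cell division genes and Il17a, though in Parental 4T1 18 of the 19 Il17a UMIs lay in 1 cell. The 11 lower genes became 33 without Clone M and 21 without Clone EM3. With each cell scaled to the same total 134 genes were higher, and 122 of the 190 were among them. Without the 4 cells rich in Igkc or Gzmc 175 were higher. These 500 cells were deeper than the other T cells of their tumours. Their median was 1886 to 5408 UMIs per cell, against 958 to 1700 in the named subtypes, with a mean difference of 2206 ± 1056 UMIs (SD, n = 6 tumours), higher in 6 of 6 (exact two-sided sign-flip permutation test, p = 0.0313, the smallest 6 tumours allow, 0.0469 adjusted over 3 measures). The doublet score was also higher in 6 of 6 tumours, by a mean of 0.0456 ± 0.00936 (SD, n = 6; same exact test, p = 0.0313, adjusted 0.0469). The mitochondrial percent was lower in 5 of 6 tumours, by a mean of -0.211 ± 0.153 percentage points (SD, n = 6; same exact test, p = 0.0625, adjusted 0.0625). The labels differed in this: the median mitochondrial percent was 0.137 to 0.460% in Mki67+ Cd8/Cd4 T, below the named subtypes in every tumour, and 0.392 to 0.971% in Trdc+ DN T, above them in every tumour except Parental 4T1. The depth lay with Mki67+ Cd8/Cd4 T cells, whose medians were 3279 to 5764 UMIs, whereas those of Trdc+ DN T cells were 1058 to 2150 UMIs. The part of depth and doublet score in the results was not tested.

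The series asks how epithelial and mesenchymal states go with the immune cells, so the shares were set against an EMT score of the tumour cells of the Total libraries, the mean log2 level of 12 mesenchymal genes such as Vim and Zeb1 minus that of 13 epithelial genes such as Cdh1 and Epcam. The score was -1.86 in Clone E, 1.07 in Parental 4T1, 1.58 in Clone EM1, 2.13 in Clone EM2, 2.78 in Clone M and 3.39 in Clone EM3. The share of both labels together among CD45 cells gave Pearson r = -0.151 (exact permutation p = 0.779) and Spearman rho = -0.086 (exact permutation p = 0.919) over 6 tumours, and r = -0.038 without Clones E and EM3. None of the 6 relations computed, for both labels, together and apart, over CD45 cells and over T cells, passed the test, with an adjusted p of 0.872 for each Pearson r and 1.00 for each Spearman rho by exact permutation. For Trdc+ DN T cells over CD45 cells r was 0.082 with all tumours and 0.972 without Clones E and EM3, and for both labels together over T cells it was -0.175 and 0.756, so these relations depended on which of the 6 tumours were used.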

How the data were processed

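UMI counts per gene and cell were used as the authors deposited them, for 12 libraries of 6 tumours. Per the submitters' processing notes the reads were processed with Cell Ranger on build mm10, and per the labels' protocols cells were fixed with a fixed-RNA kit, although 3′ reagents are named too. Other steps and the cell filters are not given in the sources used here. Per the file headers, the authors' cell tables give the counts of UMIs and genes, the mitochondrial percent, the same value as a fraction, and a complexity score that was not used. Recomputed UMI and gene counts equalled the deposited ones in every cell.

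Doublets were called with Scrublet in scanpy 1.11.5 (expected share 0.06, 30 principal components). The score limit of 0.276 was the median of the 3 libraries' own valleys that lay among low scores, a rule set after the valleys had been seen, and it called 1043 of 54955 cells (1.90%). Counts were summed per label and tumour and given as CPM with exact Poisson intervals, and shares with exact Clopper-Pearson intervals, at 95%. A gene was tested with at least 50 CPM in the higher pooled sum and called past 2-fold, on CPM plus 10, the same way in every tumour with at least 20 cells of the label. Intervals cover counting error only. Shares of cells with a UMI were also thinned to 500 UMIs per cell by the hypergeometric formula. Genes named are those of fixed marker lists, the 15 highest and 10 lowest by median ratio per label, and the 5 highest and lowest of each tumour with at least 50 of these cells. Others named by a single cell's UMIs or by receptor segment were chosen after their values were seen. Cd69 was added outside these rules. Members and lists were chosen with earlier results of these data known. The symbols Trdv4, Trgv2, Klrb1c, Klra4 and Ptcra of the lists did not match the CD45 tables. Alternatives changed the doublet filter, pseudocount, floor, weighting of cells, denominator and the tumours used.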

Additional observations from a re-analysis of the deposited data

How the results depend on the processing

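No paired analysis between clones was possible because each clone is 1 tumour, so no replicate numbers pair samples across clones. The comparison of labels within each tumour is a different test, paired by tumour, and is in the report. Of 129 alternative values for the 28 main results, 97 kept their size or side of the threshold. Shares and counts of genes cannot change sign, so only the paired differences and the correlation could reverse, and none did. The relation over T cells without Clones E and EM3, 0.756 against -0.175, was not among these alternatives. A count of genes was taken as kept within a set fold of the main count, so 134 higher genes against 190 counted as kept. A similar count can also hold other genes. With each cell scaled to the same total, 122 of the 190 higher and 5 of the 11 lower genes of both labels were called again. The same setting called again 50 of the 68 lower genes of Mki67+ Cd8/Cd4 T and 201 of the 266 of Trdc+ DN T. Against Gzmb+ Cd8+ T cells alone 67 genes were lower in Mki67+ Cd8/Cd4 T, but only 13 of the 68 were called again. With granulocytes left out of the denominator, the share of the cells of both labels was 1.27% in Clone E, 2.03% in Clone EM1, 0.829% in Clone EM3 and 1.02% in Clone M. With at least 650 genes per cell it was 2.20% in Clone EM1 and 0.807% in Clone M, and Mki67+ Cd8/Cd4 T were 5.94% of T cells in Clone EM1 and 6.89% in Clone EM2.

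With a pseudocount of 1 CPM, 105 genes were lower in Mki67+ Cd8/Cd4 T and 19 in the cells of both labels, against 68 and 11 (0.202% of genes tested, beside 190 higher, 3.50%). With a floor of 20 CPM, 7578 genes were tested for Trdc+ DN T in place of 5263. Of these, 600 were lower, against 266, while 148 were higher, against 141. In these cells 3 UMIs over all tumours are 19.9 CPM, close to that floor. Leaving out 1 tumour gave 83 to 121 genes lower in Mki67+ Cd8/Cd4 T, the most without Clone EM3, and 288 to 310 higher. For Trdc+ DN T, where 2 tumours then remained, it gave 191 higher without Clone EM1, 216 without Clone EM2 and 268 without Clone M, and 496 to 552 lower, the most without Clone M. For both labels together it gave 14 to 33 lower, 21 without Clone EM3 and the most without Clone M, and 189 to 239 higher. With tumours of at least 15 cells, which adds Clone E, 117 of the 141 higher and 180 of the 266 lower genes of Trdc+ DN T were called.

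Leaving out 1 tumour, the depth difference was 1905 to 2543 UMIs and the doublet score difference 0.0433 to 0.0488, both past no threshold since 5 tumours cannot give less than 0.0625. With means in place of medians the mitochondrial difference was -0.211 percentage points, with an adjusted p of 0.0313 by the exact sign-flip test. The depth of Clone M and Parental 4T1, with 13 dividing cells each, and of Clone EM3, with 6 Trdc+ DN T cells, limits what can be said of single genes there.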
